A study of Glycine max with 6 samples.

Results

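Nodulation genes were examined in soybean leaves sprayed with a Nod factor, as 20 probe sets of 18 genes among the 37593 soybean probe sets of an Affymetrix soybean array, where 6031 genes are paired with a probe set of their own. A probe set is a group of short probes read as 1 value per array. The members were chosen by name. Each gene paired with the probe set had to carry a symbol or synonym of the nodulin series (N- with a number, NOD or ENOD) or of a nodulation regulator such as NARK. Sucrose synthase, SS, also listed as N-100 and held by 3 probe sets, was left out.

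Plants of both groups were of cultivar OAC Bayfield, at the V1 stage. In treated plants the first trifoliolate leaf received 2 mL of water with 0.02% Tween 20 and 1e-07 M LCO, the lipo-chitooligosaccharide NodBj-V (C18:1, MeFuc) of Bradyrhizobium japonicum strain 532C (3 arrays). The water control was the same volume of water and detergent without LCO (3 arrays). All leaves were collected 48 h after the spray. Whether a replicate was a plant or a pool of plants is not given in the sources used here, and the spread that p-values measure here may be technical.

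Nod factors are the signals by which rhizobia are recognised by legume roots. LysM receptor kinases at the root surface bind them, nuclear calcium oscillations follow, and transcription factors such as NIN and NSP1 switch on the nodule programme. Nodulins are genes first found through their transcripts in nodules: early nodulins are induced during infection and organ formation, and late nodulins serve the working nodule, many of them at the membrane around the bacteria. Autoregulation limits nodule number from the shoot: peptides made in the root travel to the leaf, where the receptor kinase NARK perceives them.

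The set holds nodulins and NARK rather than the perception machinery. RefSeq lists 39 soybean genes whose symbol or synonym has such a name. Of these, 18 had a member probe set and 1 was SS. The other 20 were not analysed here, among them the Nod factor receptor genes NFR1B, NFR5A and NFR5B, the symbiosis kinases SYMRK-ALPHA and SYMRK-BETA, the transcription factors NINA, NSP1 and NSP2, the peptide genes RIC1 and RIC2, and the leghemoglobin genes LB2 and LB3. The platform table gives no gene for 28546 soybean probe sets.

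Only 7 of the 20 probe sets, of 6 genes, were above background in leaf. Background was set at a log2 value of 3.31, the percentile 90 of the means of the array's 23394 probe sets for Phytophthora sojae and Heterodera glycines, a pathogen and a nematode of soybean. The 7 were both probe sets of the uricase UR2, and those of NOD33, NARK, N-36A, ENOD40B and ENOD55-2. The share above background was 35.0% for the members, against 77.9% of all soybean probe sets and 85.6% of those paired with 1 gene. In 6 of the 7, each of the 6 arrays lay above background. ENOD55-2 was just inside, with a mean of 3.57 and 4 of 6 arrays above. N-26B was the nearest outside, with a mean of 2.90 and no array above.

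**Figure D1:**
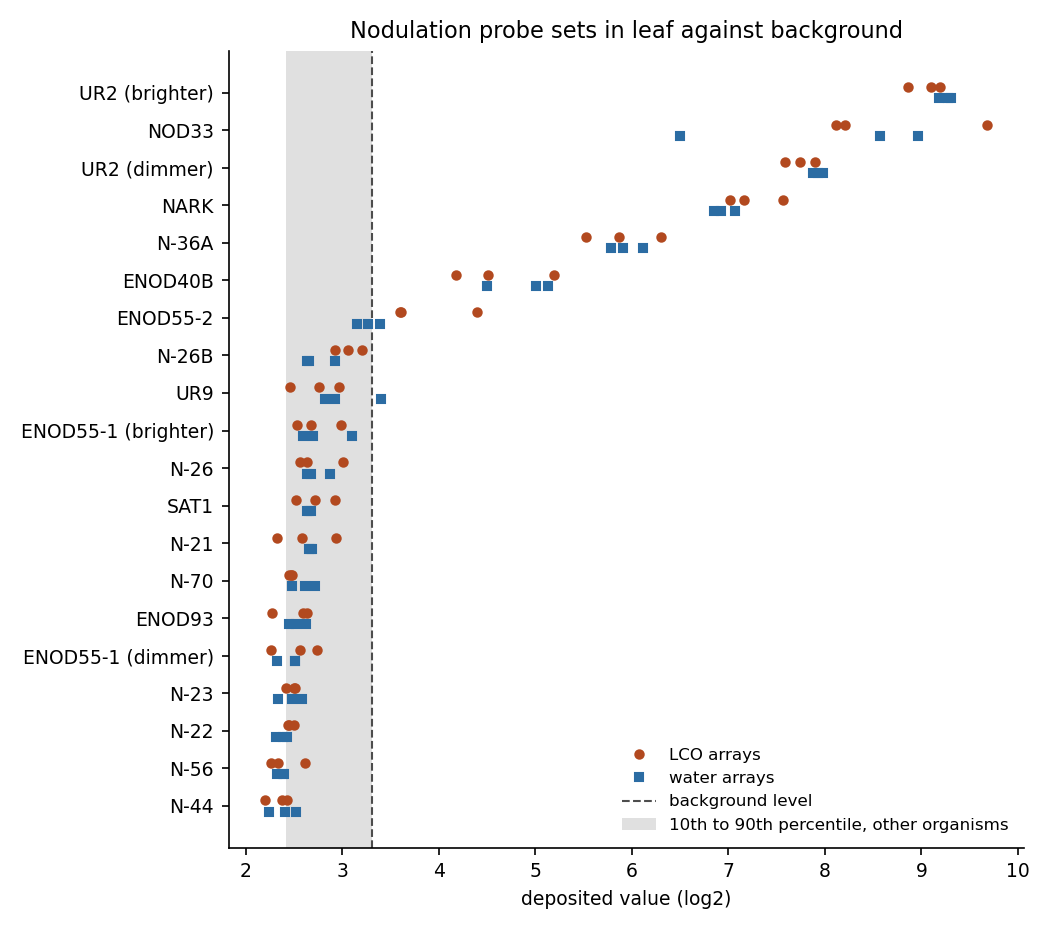
Deposited log2 values of the 20 nodulation probe sets (rows) in the 3 LCO arrays (circles) and the 3 water arrays (squares), with the background level of 3.31 (dashed) and the 10th to 90th percentile of the other organisms' probe sets (grey). The upper 7 rows have means above the dashed line and the lower 13 below it; levels of different probe sets are not comparable with each other. Where a gene has 2 rows, brighter and dimmer name its probe sets.

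The arrays carried leaf RNA: of 24 probe sets for leaf mesophyll genes such as CAB3, a light-harvesting protein, 20 were above background, with means up to 14.4. Their array means ran from 9.88 to 10.03 with LCO and from 9.97 to 10.17 with water, and none passed the test. Of these 20, 7 had higher estimates with LCO, and their median log2 change was -0.02. CAB3 probe sets above background ran from -0.02 to 0.07. Those of VSPA, also on the list, were all lower with LCO, from -0.45 to -0.10. Of 11 probe sets for sieve element occlusion proteins, which mark phloem, 7 were above background, with array means from 4.99 to 5.54 with LCO and from 4.56 to 4.64 with water. SEOS and SEOP had no probe set above background, none of the 7 passed, and the median log2 change of the 7 was 0.74. Estimates were higher with LCO in 6 of the 7, and SEOC was at -0.07. All 4 probe sets of MYB60, a guard cell gene, were above background, with a median log2 change of 0.66 and none passing. RNA quality was read from control genes, as the value at the 3′ end minus that at the 5′ end. For P450 this gap was 2.13, 1.74 and 2.92 in LCO 1, 2 and 3, against 1.01, 0.97 and 0.95 in water 1, 2 and 3. The gap of GlutTrans differed less, at 0.60 ± 0.27 with LCO and 0.39 ± 0.35 with water (SD, n = 3 each). Actin, SucBP and Ubiquitin had 5′ means of 3.21, 2.05 and 2.47, under the background level. Their mean gaps were also larger with LCO, by 0.12, 0.29 and 0.10. Water 1 and water 2 lay closest together, with an SD of 0.198 for their difference over the tested probe sets, where other pairs had 0.341 to 0.695. With both averaged into 1 sample, again 0 members passed. In whole leaves, fewer cells of a type and less RNA per cell cannot be told apart.

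No member passed the test for a change with LCO. Of the 7 probe sets above background, 0 passed limma's test at an adjusted p of 0.05, and 1 (ENOD55-2) had an unadjusted p under 0.05. Among all 29286 soybean probe sets tested, 3.55% passed, 1.67% as higher and 1.88% as lower with LCO, and 25.8% had an unadjusted p under 0.05. The estimates were higher with LCO in 3 of 7 and lower in 4, where 49% of all tested probe sets had a higher estimate, and their median log2 change was -0.04, against -0.01 over all tested probe sets. The median pooled SD of the members was 0.30, against 0.18 over all tested probe sets. Both UR2 probe sets went the other way, at 0.13 and 0.11. No member's estimate reached 1 on the log2 scale.

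**Figure D2:**
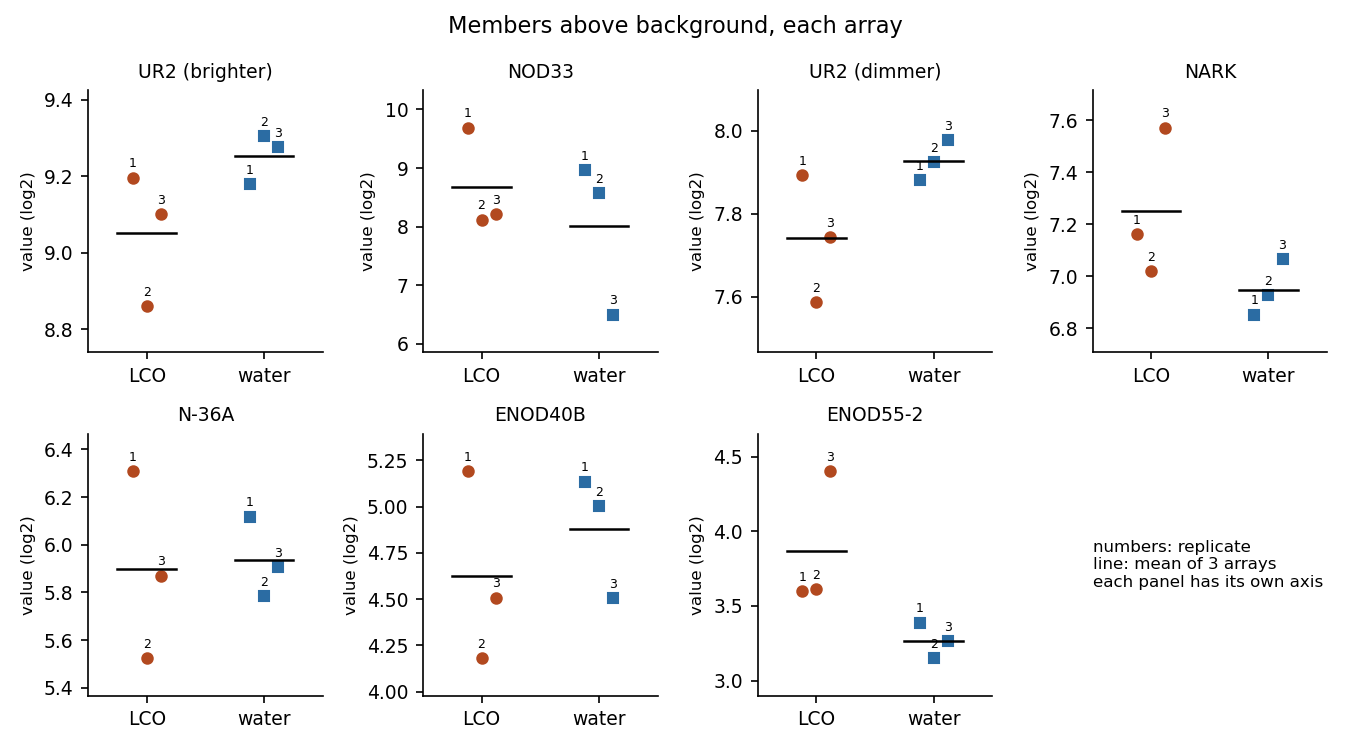
Log2 values of the 7 probe sets above background in each LCO array (circles, left) and each water array (squares, right), with the mean of 3 arrays as a line and replicate numbers beside the points. The groups overlap in every panel except ENOD55-2, and each panel has its own axis. Where a gene has 2 panels, brighter and dimmer name its probe sets.

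NARK, the leucine-rich repeat receptor kinase that restrains nodulation from the leaf, was above background in each array. Its log2 values were 7.16, 7.02 and 7.57 in LCO 1, 2 and 3, against 6.85, 6.93 and 7.06 in water 1, 2 and 3. The groups overlapped, since LCO 2 lay below water 3, and LCO 3 stood above the rest. The log2 change was 0.30 (SE 0.16, 95% interval -0.08 to 0.69, limma adjusted p = 0.285), a 1.23-fold difference whose interval ran from 0.943 to 1.61. Without LCO 3, the array with the largest P450 gap, the estimate was 0.14. Whether that gap had a part in the NARK estimate was not tested. The phloem list, with a median of 0.74 and 6 of 7 estimates higher, had higher array means in the same LCO arrays. Its part in the NARK estimate was not tested. CLV1A, the close relative of NARK that acts in shoot growth, had 5.70, 5.54 and 5.77 in LCO 1, 2 and 3, against 5.94, 5.90 and 5.71 in water 1, 2 and 3. Its groups overlapped too, and its estimate had the opposite sign, at -0.18 (SE 0.11, limma adjusted p = 0.356). The difference between the changes of NARK and CLV1A was not tested.

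ENOD55-2, an early nodulin related to the copper-binding phytocyanins, was the member with the smallest p. It was dim: 3.60, 3.61 and 4.40 in LCO 1, 2 and 3, against 3.39, 3.15 and 3.26 in water 1, 2 and 3. All 3 LCO arrays lay above all 3 water arrays, and 2 of the water arrays were under the background level. Among all tested probe sets, 31.5% had groups that did not overlap, 15.3% in that direction. The log2 change was 0.60 (SE 0.23, 95% interval 0.05 to 1.15, unadjusted p = 0.0363, limma adjusted p = 0.167). Near background a log2 difference can understate a change in transcript, and with 2 water arrays under that level its size is uncertain. LCO 3 stood apart here as it did for NARK, and without it the estimate was 0.34 (limma adjusted p = 0.207). Both probe sets of its namesake ENOD55-1 (LOC100784860) stayed at background, with means of 2.77 and 2.48, so nothing further on this nodulin could be read from them.

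The ENOD40 transcripts, early nodulin RNAs with very short open reading frames that are best known from the nodule's vascular tissue, were present in leaf and did not pass. ENOD40B had 5.19, 4.18 and 4.51 in LCO 1, 2 and 3, against 5.14, 5.00 and 4.51 in water 1, 2 and 3. LCO 1 was the highest array and LCO 2 the lowest, so the LCO arrays spanned all the water arrays. The log2 change was -0.26 (SE 0.29, 95% interval -0.95 to 0.44, limma adjusted p = 0.610). It was -0.54 without LCO 1, -0.44 without water 3 and -0.03 without LCO 2. ENOD40B also carries the name N-36B, which it shares with ENOD40A, the next gene along the chromosome in assembly Glycine_max_v4.0. Whether the value belongs to ENOD40B alone was not tested.

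N-36A, the nodulin that shares its number with N-36B, was likewise highest in LCO 1 and lowest in LCO 2. Its log2 values were 6.31, 5.52 and 5.87 in LCO 1, 2 and 3, against 6.12, 5.78 and 5.91 in water 1, 2 and 3. The log2 change was -0.04 (SE 0.21, 95% interval -0.54 to 0.47, limma adjusted p = 0.931), and its sign turned without LCO 2 (0.15) or without water 1 (0.06). Its probe set is of the type that can be shared by several transcripts.

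Uricase, listed as nodulin-35, is the peroxisomal enzyme that oxidises urate, a step to the ureides that carry fixed nitrogen out of soybean nodules. UR2 was read by a pair of probe sets with near-equal differences. The brighter had 9.20, 8.86 and 9.10 in LCO 1, 2 and 3, against 9.18, 9.30 and 9.28 in water 1, 2 and 3. The dimmer had 7.89, 7.59 and 7.74 in LCO 1, 2 and 3, against 7.88, 7.92 and 7.98 in water 1, 2 and 3. LCO 2 was lowest in both, and LCO 1 lay within the range of the water arrays in both. The log2 changes were -0.20 (SE 0.12, limma adjusted p = 0.328) and -0.19 (SE 0.11, limma adjusted p = 0.331). Their 95% intervals, -0.48 to 0.08 and -0.45 to 0.08, were the narrowest of the members. Without LCO 2 the estimates were -0.10 and -0.11. These probe sets share a gene and count as 1 observation of it.

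UR9, the uricase gene with the synonym URnod-35, was not above background. Its values were 2.46, 2.97 and 2.76 in LCO 1, 2 and 3, against 3.41, 2.82 and 2.93 in water 1, 2 and 3. Water 1 was the only value above the background level among the 78 values of the 13 dim probe sets. Of these uricase genes, the probe sets of UR2 and not that of UR9 stood above background in leaf. The dimmer UR2 probe set is of the type that can be shared by several transcripts, so its value may not belong to UR2 alone.

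NOD33 had the widest spread. Its log2 values were 9.69, 8.12 and 8.21 in LCO 1, 2 and 3, against 8.96, 8.57 and 6.50 in water 1, 2 and 3. LCO 1 was the highest and water 3 the lowest, and the other 4 arrays lay between 8.12 and 8.96 with the groups mixed. The log2 change was 0.66 (SE 0.72, 95% interval -1.07 to 2.40, limma adjusted p = 0.597), so changes of 2-fold in either direction were within the interval. Its pooled SD of 1.13 was exceeded by only 0.478% of tested probe sets. Water 3 decided the sign: without it the estimate was -0.10, and without LCO 1 it was 0.15. This probe set too is of the type shared by several transcripts.

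**Figure D3:**
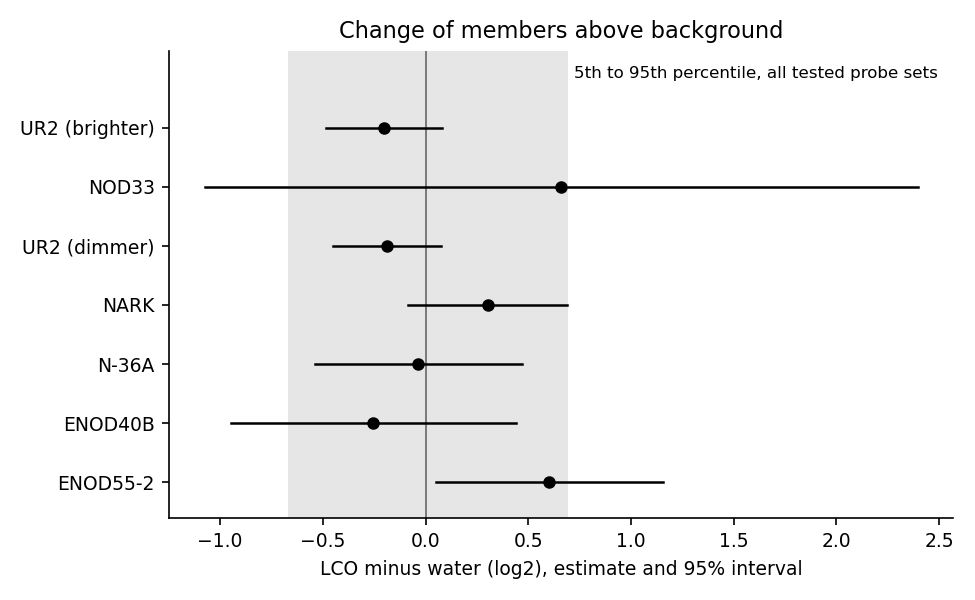
Log2 change (LCO minus water) of the 7 probe sets above background, as the limma estimate (point) with its 95% interval (line), over the 5th to 95th percentile of the changes of all tested soybean probe sets (grey). Intervals cross 0 in all but ENOD55-2, whose adjusted p was 0.167, and the interval of NOD33 is the widest. Where a gene has 2 rows, brighter and dimmer name its probe sets.

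**Figure D4:**
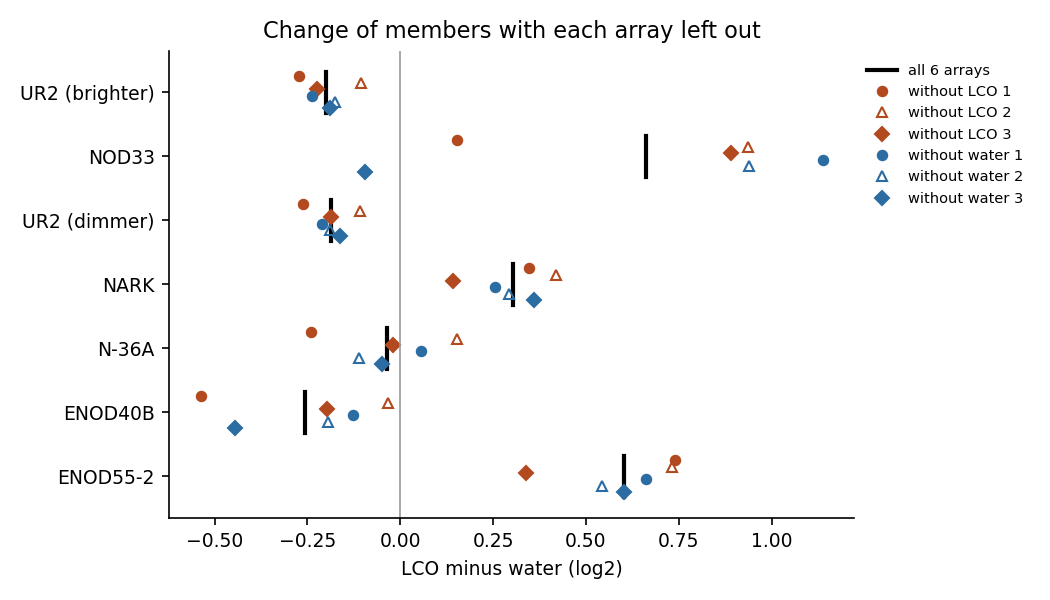
Log2 change (LCO minus water) of the same 7 probe sets with each array left out in turn (LCO arrays in orange, water arrays in blue), beside the estimate from all 6 arrays (black bar). NOD33 is at -0.10 without water 3, and NARK and ENOD55-2 have their lowest values, 0.14 and 0.34, without LCO 3. Where a gene has 2 rows, brighter and dimmer name its probe sets.

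The other 13 probe sets, of 12 genes, had means from 2.36 to 2.90 and were not tested for change. The late nodulins of the membrane around the bacteria were all among them: N-26, the aquaporin after which the NIP class is named, at 2.73, N-21, which is related to vacuolar iron transporters and has the synonym GmVTL1a, at 2.64, and N-70, a transporter of the major facilitator type, at 2.54. SAT1 (LOC100790824), a membrane-bound bHLH factor tied to ammonium transport, was at 2.69. ENOD93, an early nodulin, was at 2.52, N-56, related to isopropylmalate synthase, at 2.38, and the nodulins N-22, N-23, N-26B and N-44 were between 2.36 and 2.90. Differences between LCO and water in these 13 ran from -0.32 to 0.33. Fitted with no filter, none of the 13 passed limma's test (lowest adjusted p = 0.188), and 1 of the 13, N-26B, had an unadjusted p under 0.05. N-26B had 3.21, 3.06 and 2.93 in LCO 1, 2 and 3, against 2.93, 2.64 and 2.65 in water 1, 2 and 3. These values put no level on the transcripts, only that they were not above background in either group.

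Genes related to nodule signalling and function, taken from a list by symbol, did not pass either. The list held 43 probe sets of 30 genes, of which 33, of 23 genes, were above background. With LCO 0 rose, 0 fell and 33 did not pass limma's test at an adjusted p of 0.05, where 3.55% of all tested probe sets passed. An unadjusted p under 0.05 was found for 7 of the 33, against 25.8% of all tested probe sets. The median log2 change was -0.13, against -0.01 over all tested probe sets. There were 12 estimates higher and 21 lower, where 49% of all tested probe sets had a higher estimate.

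In nitrogen metabolism, all 9 estimates were lower with LCO, from -0.53 to -0.05. They came from 5 genes, and probe sets of the same gene are not separate observations. The nitrate transporter NRT1-3 had 10.22, 9.94 and 10.02 in LCO 1, 2 and 3, against 10.69, 10.66 and 10.36 in water 1, 2 and 3. All its LCO arrays lay below all its water arrays, as in 16.3% of all tested probe sets, and the log2 change was -0.51 (SE 0.13, limma adjusted p = 0.0862). Its other probe set also did not overlap, at -0.53 (SE 0.16, limma adjusted p = 0.117). Cytosolic glutamine synthetase GS1-1 (LOC548082), which captures ammonium, had 4 probe sets above background, with estimates from -0.33 to -0.19; the smallest adjusted p was 0.123.

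In carbon metabolism, which in nodules makes malate for the bacteria, 8 estimates were higher and 6 lower. The carboxylase PEPC16 had 9.57, 9.80 and 9.92 in LCO 1, 2 and 3, against 8.93, 9.06 and 9.42 in water 1, 2 and 3. Its groups did not overlap, and the log2 change was 0.63 (SE 0.16, limma adjusted p = 0.0852), the smallest adjusted p of the list. PPCK2, a kinase of such carboxylases, had a log2 change of -0.63 (SE 0.31, limma adjusted p = 0.253) with overlapping groups.

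Among SWEET sugar transporters, 4 estimates were higher and 2 lower. SWEET34 had 6.63, 6.63 and 7.11 in LCO 1, 2 and 3, against 5.75, 5.48 and 6.34 in water 1, 2 and 3, without overlap. Its log2 change of 0.94 (SE 0.25, limma adjusted p = 0.0893) was the largest in size of the list. SWEET31 had a log2 change of 0.52 (SE 0.17, limma adjusted p = 0.123) in a dim probe set, with a mean of 3.62 and 5 of 6 arrays above background. Its other probe set, with a mean of 2.52, was not above background. SWEET42 had a log2 change of 0.21 (SE 0.11, limma adjusted p = 0.281).

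The nuclear factor Y subunits, of a family that acts downstream of NIN in nodules, both had lower estimates. NF-YA13 had 3.10, 3.94 and 3.85 in LCO 1, 2 and 3, against 4.48, 4.38 and 4.44 in water 1, 2 and 3. LCO 1 was under the background level, and the log2 change was -0.81 (SE 0.22, limma adjusted p = 0.0981). NF-YA05 had a log2 change of -0.21 (SE 0.10, limma adjusted p = 0.256). DMT1, an iron transporter known from the membrane around the bacteria, had a log2 change of -0.10 (SE 0.19, limma adjusted p = 0.775). The probe sets of the globin GLB3 and of the phosphate transporters PHT1-3 and PHT1-8 were not above background.

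**Figure D5:**
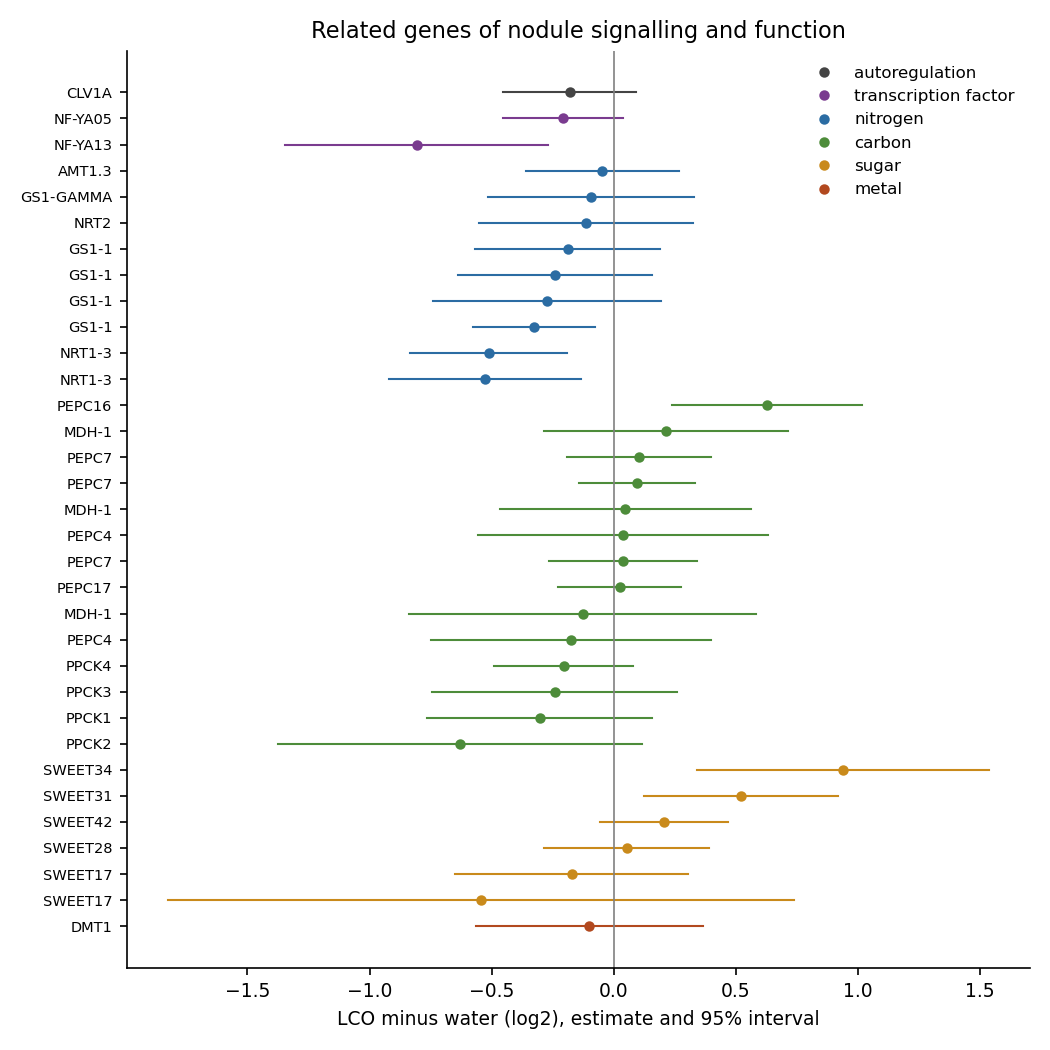
Log2 change (LCO minus water) of the 33 related probe sets above background, as the limma estimate (point) with its 95% interval (line), coloured by role. All 9 nitrogen estimates, of 5 genes, lie below 0. SWEET34 at 0.94 and NF-YA13 at -0.81 are the farthest from 0 on each side. None passed at an adjusted p of 0.05.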

How the data were processed

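Total RNA of 6 leaf samples was read on 1-colour Affymetrix arrays. The authors deposited 1 log2 value per probe set and array, made with RMA per the submitters' processing notes; which software and version is not given in the sources used here. The method corrects background, brings arrays to 1 distribution and summarises probes, so a change shared by most transcripts would not be seen. The log2 scale was taken from the values, which ran from 1.45 to 14.6, with array medians from 3.42 to 3.47. The number of arrays limits the precision.

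Samples were grouped by their titles. Probe sets were named from the platform table and, through Entrez identifiers, from RefSeq genes of Glycine_max_v4.0, where 8652 of 8677 probe sets with 1 gene matched. Probe sets with a mean above the percentile 90 of the other organisms' probe sets entered a limma fit (version 3.58.1, R 4.3.3) by lmFit and eBayes with no term but group. P-values were adjusted by Benjamini-Hochberg over all 29286 tested, with a threshold of 0.05. Intervals are 95%. The fit was tested on simulated data.

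Members above background are named with each array's value and the rest by level. The related list was matched by symbol prefix, other families were dropped by name, and the 10 probe sets with the smallest adjusted p were named, with CLV1A and DMT1 so that each tested role is named. The members and lists were chosen with earlier results of these data known. Alternatives changed the filter, the normalization, the eBayes prior or the array weights, added a replicate block, averaged probe sets per gene, or left out or averaged arrays. Plots used matplotlib 3.10.9 (Python 3.11.15). Control probe sets and raw probe intensities were not tested.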

Additional observations from a re-analysis of the deposited data

How the results depend on the processing

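The count of members changed, 0, also held in 15 of 16 alternatives; with array weights it was 2, namely ENOD40B (-0.70, limma adjusted p = 0.034) and the brighter UR2 probe set (-0.31, limma adjusted p = 0.0485). That setting called 9544 of all soybean probe sets, against 1040. Over all soybean probe sets the count was 3010 with the replicate block, 203 with water 1 and 2 averaged, and from 193 to 2207 with an array left out (570, 416 and 291 for LCO 1, 2 and 3, and 199, 193 and 2207 for water 1, 2 and 3). Deviations of same-numbered samples from their group means correlated at 0.452, -0.04 and 0.53 for numbers 1, 2 and 3. LCO 3 correlated best with water 3, and LCO 1 with water 1, though nearly as well with water 2 (0.448). LCO 2 correlated best with water 3 (0.11). Whether same-numbered samples shared more than a number was not tested.

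Among related genes the count of 0 became 11 with array weights and 2 with the replicate block, PEPC16 (limma adjusted p = 0.0306) and SWEET34 (0.0198). Leaving out single arrays gave 0 to 3, the 3 being PEPC16 (limma adjusted p = 0.0374), SWEET34 (0.0304) and a probe set of NRT1-3 (0.0448) without water 3. Members above background were 7, or 11 against the other organisms' median, and 6 to 8 under the percentile 95 or a count of arrays. NOD33 was reversed with array weights (-0.31), and with an array left out ran from -0.10 to 1.14; N-36A ran from -0.24 to 0.15. ENOD55-2 stayed above 0 in all 15 alternatives that tested it (limma adjusted p from 0.0785 to 0.389), and NARK in all 16 (0.152 to 0.568). The causes were not tested. Dim probe sets, such as ENOD55-2, are limited by background.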

Other observations

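DMT1, known as an iron transporter of the symbiosome membrane, the membrane around the bacteria in nodules, stood far above background in leaf, with 11.97, 12.40 and 11.72 in LCO 1, 2 and 3, against 11.92, 12.19 and 12.27 in water 1, 2 and 3. N-26, N-21 and N-70, also known from that membrane, were at background in all 6 arrays. Among nodulins that share a number, ENOD55-2 was above background and ENOD55-1 was not, and UR2 was above it and UR9 was not. Both ENOD40B and N-36A were above it, and neither N-26 nor N-26B was. Below background, N-70 was lower in every LCO array than in every water array, by -0.14, and N-22 was higher in every LCO array, by 0.09. Values at that level have no order, and groups did not overlap in 31.5% of all tested probe sets.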
